A study of Mus musculus with 12 samples.

Results

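The transcription factor Tfe3, its relatives Tfeb, Mitf and Tfec, and the folliculin genes Flcn, Fnip1 and Fnip2, whose products govern where these factors sit in the cell, were followed in mouse embryonic stem (ES) cells that differ in ERRb, an orphan nuclear receptor and the product of Esrrb. These are 7 of the 22180 genes that the arrays measured with a probe set of 1 gene symbol. Each was read by a single probe set, the probes on the array that are summarised to 1 value. The family was chosen by its level of Tfe3, which stood higher in the KO/ERRb-wt group than in the KO/mock group, so that difference is given below as a description with no test. The other members came in with Tfe3 by their known place in its pathway. They and the gene lists below were chosen with earlier results of these data known, so their counts and p-values are not free of that choice.

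All cells were of K3, a mouse ES cell line. The study compared 3 groups of 4 arrays. KO/ERRb-wt cells carried a knockout of the ERRb gene and a lentivirus that expresses ERRb, KO/mock cells carried the knockout and are labelled mock, and WT/mock cells are labelled wild type and mock; what mock stands for is not said. Every group was grown with LIF and the inhibitors CH99021, which acts on GSK3, and PD0325901, which acts on MEK, and then spent 3 days with both inhibitors and doxycycline; the second step is labelled without LIF. Each group held 2 clones of 2 arrays each, clones 12-1 and 12-3 for KO/ERRb-wt, 8-3 and 8-4 for KO/mock, and 5-2 and 5-5 for WT/mock, so a difference between groups also rests on 2 clones a side. Values are log2 expression, on which a difference of 1 is a doubling. They are relative within an array, and probe sets differ in brightness, so a gene's level was compared between groups and not with that of another gene.

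The Esrrb probe set did not follow the labels. It read 6.99, 6.76, 6.50 and 6.68 in the arrays labelled KO/ERRb-wt, against 7.48, 8.00, 7.74 and 7.41 in those labelled KO/mock and 7.38, 7.38, 7.39 and 7.38 in those labelled WT/mock. It was thus lowest in the group labelled as re-expressing ERRb, 0.93 ± 0.13 below KO/mock on the log2 scale (SE; adjusted p = 0.00436) and 0.65 ± 0.13 below WT/mock (adjusted p = 0.00557). KO/mock lay 0.28 ± 0.13 above WT/mock, which did not pass (adjusted p = 0.324). No source used here says whether the probes lie in the deleted part or in the lentiviral copy, and group names below are those of the labels. All 11 ES cell markers checked averaged 6 or more on the log2 scale, and none of 9 fibroblast markers did. In the limma fit at an adjusted p under 0.05, 5 of the 11, Esrrb among them, were lower in KO/ERRb-wt than in KO/mock. None of the 11 was higher there, and 3.17% of all genes were lower. Against WT/mock, 6 were lower and 1 higher in KO/ERRb-wt, and 2 were lower in KO/mock. Of genes that averaged 6 or more, 23% and 6.64% were lower in the same order. The summed level of the ES cell markers was 14.06 to 14.12 in KO/ERRb-wt, 14.19 to 14.21 in KO/mock and 14.23 to 14.31 in WT/mock, so the groups did not overlap; the part of this in the results below was not tested. Of 8 primitive endoderm markers, 3 averaged 6 or more. In KO/ERRb-wt 1 was called higher and 2 lower than in KO/mock, and 1 lower than in WT/mock. KO/mock had 1 called higher and 1 lower than WT/mock. Of all genes 4.4%, 20.8% and 5.58% were called in the same order. The endoderm markers summed to 8.66 to 8.75 in KO/ERRb-wt, 8.81 to 8.99 in KO/mock and 8.77 to 8.91 in WT/mock. Array medians ran from 5.00 to 5.07, and the number of arrays and clones limits the precision. In bulk RNA, fewer cells of a type and less RNA per cell cannot be told apart.

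Tfe3, Tfeb, Mitf and Tfec are basic helix-loop-helix leucine zipper factors that bind E-boxes as homodimers or as heterodimers with each other, and they drive genes of the lysosome and of autophagy. Folliculin, the product of Flcn, forms a complex with Fnip1 or Fnip2 that activates the small GTPases RagC and RagD on the lysosome, and mTORC1 recruited there phosphorylates Tfe3 and Tfeb and keeps them in the cytoplasm. In mouse ES cells, nuclear Tfe3 is known to act on Esrrb and to hold cells in the naive state, and folliculin is needed for them to leave it. The arrays measure RNA, so the place of Tfe3 in the cell and its phosphorylation were not measured.

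The 250 bases upstream of an annotated RefSeq transcript start are shown for the 3 members that changed in at least 1 comparison and for Fnip1, the member whose window holds the E-box that this family binds. They are RefSeq sequences of GRCm38.p6, each given 5′ to 3′ on the strand of its gene, with the match to a searched motif in capitals. For Tfe3, Mitf and Fnip1 that transcript starts inside the gene as annotated, so the window runs past the gene start given below, and positions are counted from the transcript start. The motifs were the E-box CACGTG, the ERR half-site AAGGTCA, which reads TGACCTT on the other strand, and the cAMP response element TGACGTCA, which was added after the sequences had been read.
Tfe3 (chrX:7762411-7762660, plus strand): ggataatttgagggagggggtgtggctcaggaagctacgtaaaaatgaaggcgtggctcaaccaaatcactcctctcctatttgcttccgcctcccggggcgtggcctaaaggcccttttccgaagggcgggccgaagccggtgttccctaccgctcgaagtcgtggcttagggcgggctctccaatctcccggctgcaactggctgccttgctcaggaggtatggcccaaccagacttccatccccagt
Mitf (chr6:97806808-97807057, plus strand): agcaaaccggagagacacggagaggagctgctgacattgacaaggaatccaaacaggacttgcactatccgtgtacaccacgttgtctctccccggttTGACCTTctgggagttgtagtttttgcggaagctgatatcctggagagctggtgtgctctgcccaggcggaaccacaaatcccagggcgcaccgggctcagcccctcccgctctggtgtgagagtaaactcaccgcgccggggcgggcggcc
Flcn (chr11:59810040-59810289, minus strand): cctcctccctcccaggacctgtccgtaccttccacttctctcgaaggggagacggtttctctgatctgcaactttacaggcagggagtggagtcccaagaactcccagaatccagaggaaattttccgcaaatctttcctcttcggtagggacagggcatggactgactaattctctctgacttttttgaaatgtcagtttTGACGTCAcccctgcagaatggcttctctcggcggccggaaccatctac
Fnip1 (chr11:54437929-54438178, plus strand): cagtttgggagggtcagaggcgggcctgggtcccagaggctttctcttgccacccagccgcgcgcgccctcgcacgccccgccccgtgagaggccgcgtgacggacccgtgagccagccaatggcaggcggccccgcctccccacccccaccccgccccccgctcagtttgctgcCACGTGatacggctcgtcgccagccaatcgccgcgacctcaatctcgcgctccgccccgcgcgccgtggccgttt
Searched on both strands, CACGTG stood in 1 of the 12 windows of the 7 genes, that of Fnip1 at -75 from the transcript start, and in 6.02% of 32851 mouse windows of the same length. AAGGTCA stood in 1 of the 12, the first of 3 Mitf windows at -152, and in 4.08% of all windows. TGACGTCA stood in 2 of the 12, Flcn at -49 and the most downstream of the Mitf windows, not printed here, at -153, and in 1.55% of all windows. This motif was added once the sequences had been read, so its count is a description and no test. Neither of the 2 Tfe3 windows held any of the 3 motifs. None of the motifs overlaps another here. A match is a run of letters, not a measured site, and its absence says nothing beyond these windows.

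Of the 7 genes, Tfe3, Mitf and Flcn moved and the other 4 did not pass in any comparison. By group means, Tfe3 was highest in KO/ERRb-wt and lowest in KO/mock, while Mitf and Flcn stood lowest in WT/mock, higher in KO/mock and highest in KO/ERRb-wt. All calls were made at an adjusted p under 0.05 in a limma fit of all 12 arrays and 41345 probe sets. For KO/mock against WT/mock, 2 of the 7 genes were called, both higher, where 5.58% of all genes were called and 2.11% were called higher. For KO/ERRb-wt against WT/mock, 3 of the 7 were called, all higher, where 20.8% of all genes were called and 8.82% were called higher. For KO/ERRb-wt against KO/mock, the comparison that chose Tfe3, Flcn alone of the other 6 was called, where 4.4% of all genes were called. Among genes that averaged 6 or more on the log2 scale, as 5 of the 7 did, the called shares were 10.8%, 37.8% and 8.3% in the same order. The median log2 difference over the 7 genes was 0.03 for KO/mock minus WT/mock, 0.17 for KO/ERRb-wt minus KO/mock and, with WT/mock taken from KO/ERRb-wt, 0.30. The same medians over all genes were 0.00, 0.02 and 0.03. The median of 0.17 includes the Tfe3 difference that chose the family, so it is a description. The arrays of the groups did not overlap for 3 of the 7 in KO/mock against WT/mock, where this held for 15.9% of all genes, for Tfeb and Flcn in KO/ERRb-wt against KO/mock (17%), where Tfe3 was chosen for its separation and is not counted, and for 5 of the 7 in KO/ERRb-wt against WT/mock (28.5%). The 3 comparisons share arrays in pairs and are not independent of each other. Tfe3 is in the called count of KO/ERRb-wt against WT/mock and in both non-overlap counts against WT/mock. Arrays that chose it enter all of these counts, so its part in them is a description.

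**Figure D1:**
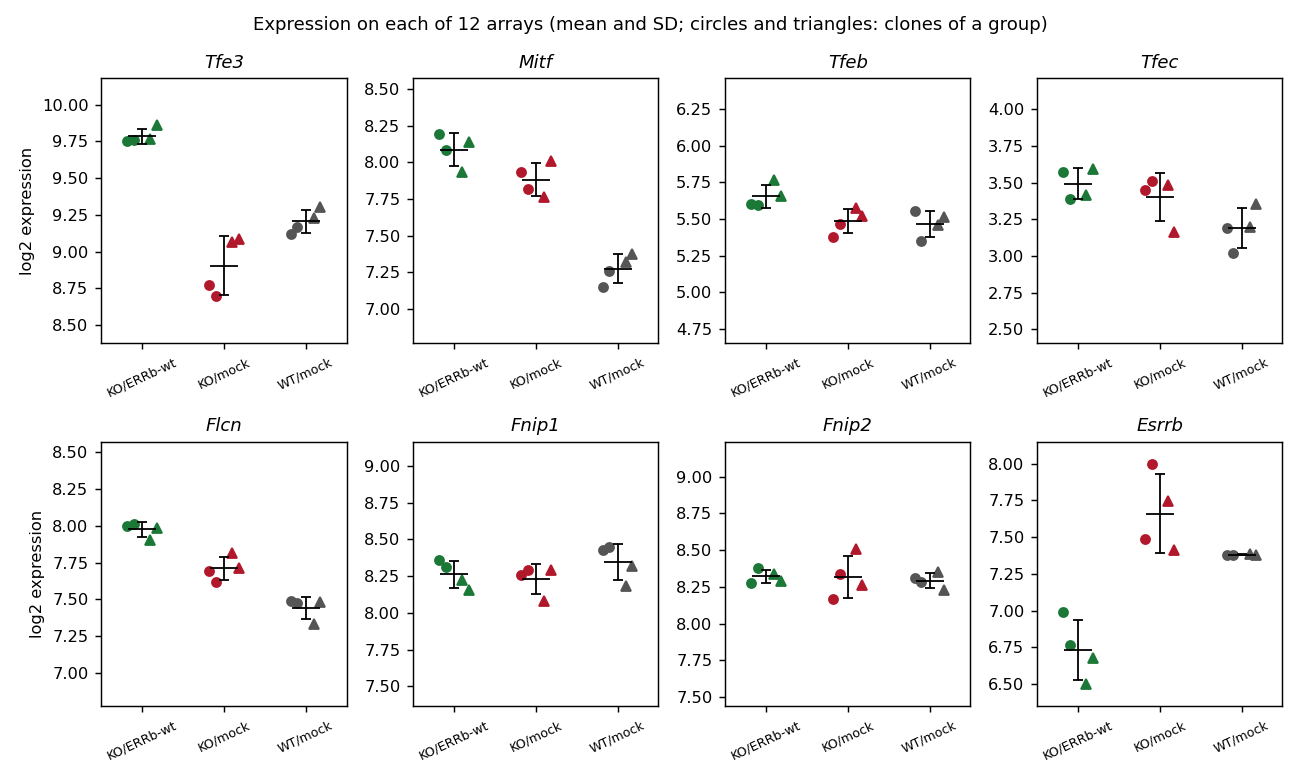
Log2 expression of the 7 family genes and Esrrb on every array, with a panel per gene and the groups KO/ERRb-wt, KO/mock and WT/mock from left to right; circles are arrays of the first clone of a group, triangles those of the second, and bars give mean and SD of 4 arrays. Tfe3 and Flcn have 3 groups that do not overlap, Mitf is low in WT/mock alone, Fnip1 and Fnip2 overlap throughout, and Esrrb is lowest in KO/ERRb-wt.

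Tfe3 (chrX:7762530-7775202, GRCm38.p6) is the member best known in ES cells. Its probe set read 9.75 and 9.76 in clone 12-1 and 9.76 and 9.86 in clone 12-3 of KO/ERRb-wt. In KO/mock it read 8.77 and 8.69 in clone 8-3 and 9.06 and 9.09 in clone 8-4, and in WT/mock 9.12 and 9.17 in clone 5-2 and 9.23 and 9.30 in clone 5-5. Every KO/ERRb-wt array lay above every WT/mock array, and every WT/mock array above every KO/mock array. The group means were 9.78 ± 0.05 in KO/ERRb-wt, 8.90 ± 0.20 in KO/mock and 9.20 ± 0.08 in WT/mock (SD, n = 4 arrays each).

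The mean of KO/ERRb-wt stood 0.88 ± 0.09 above that of KO/mock on the log2 scale (SE), or 1.84-fold. This is the difference that chose the gene. Against WT/mock, KO/ERRb-wt was 0.58 ± 0.09 higher, 1.49-fold (limma, adjusted p = 0.00119), although the same 4 KO/ERRb-wt arrays enter both differences. KO/mock was 0.30 ± 0.09 below WT/mock and did not pass (adjusted p = 0.0998). The KO/mock clones differed from each other: Tfe3 averaged 9.07 in clone 8-4 and 8.73 in clone 8-3, a difference of 0.34 ± 0.08 that did not pass across all probe sets (adjusted p = 0.495; unadjusted p = 0.00164), and 0.00902% of all genes were called between these clones. With clone 8-4 left out, which leaves only the lower clone 8-3, KO/mock stood 0.47 below WT/mock (adjusted p = 0.0181). The KO/mock arrays entered the choice of Tfe3, so the differences of KO/mock from WT/mock are a description. With clone 8-3 left out, Tfe3 in KO/ERRb-wt stood 0.71 above KO/mock, and with clone 8-4 left out 1.05 above it. When the 2 arrays of each clone were averaged first, the difference from WT/mock kept its size of 0.58 and missed the threshold (adjusted p = 0.0587).

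Genes next to Tfe3 on the X chromosome changed in the same direction. Of the 5 measured genes on each side that averaged 6 or more, 9 of 10 were called higher in KO/ERRb-wt than in KO/mock and none lower, with a median difference of 0.48. This run of X-linked genes was known from these data before the family was chosen, and it is given as a description. Pim2, a serine/threonine kinase gene, differed by 1.63, Kcnd1, a potassium channel gene, by 0.69, Wdr45, which acts in autophagosome formation, by 0.62, and Otud5, a deubiquitinase gene, by 0.52. Ccdc120 differed by 0.53, Plp2 by 0.44, Gpkow by 0.40, Gripap1 by 0.36 and Praf2 by 0.27. The exception was Mir1198, at 0.12 (adjusted p = 0.489). Over the whole X chromosome, 22 of 303 genes with a mean of at least 6 were called higher and 28 lower in this comparison, with a median of -0.07.

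For KO/mock against WT/mock, 5 of the 10 neighbours were called, all lower, with a median of -0.27: Praf2 at -0.54, Kcnd1 at -0.41, Wdr45 at -0.40, Gpkow at -0.39 and Otud5 at -0.27. Pim2 was not among them, at 0.05 (adjusted p = 0.907). For KO/ERRb-wt against WT/mock, 4 were called higher, of which Pim2 had a difference of 1.67 and Plp2 of 0.30, and Praf2 was called lower at -0.28. As background, 1.24% of all genes were called higher in KO/ERRb-wt than in KO/mock, and 3.47% lower in KO/mock than in WT/mock. Relative to WT/mock, KO/ERRb-wt had 8.82% of all genes called higher and 12% lower. All 10 neighbours averaged 6 or more, and 6.64% of such genes were called lower in KO/mock than in WT/mock. Calls in either direction took in 8.3% of them between KO/ERRb-wt and KO/mock, and 37.8% between KO/ERRb-wt and WT/mock. The 4 higher calls and 1 lower call in that last comparison thus lie near its background. Calls among these neighbours ended without single arrays for Wdr45 and Kcnd1 in KO/mock against WT/mock, for Praf2, Gripap1 and Ccdc120 in KO/ERRb-wt against KO/mock, and for Gripap1 in KO/ERRb-wt against WT/mock, with adjusted p up to 0.116. The part of the shared chromosome in the Tfe3 values was not tested.

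Each of the other members had at most 4 of its 10 neighbours called in 1 direction in a comparison. Those of Tfec had 3 higher and 2 lower calls in KO/mock against WT/mock, 1 lower in KO/ERRb-wt against KO/mock, and 2 higher and 4 lower in KO/ERRb-wt against WT/mock. Of all genes 5.58%, 4.4% and 20.8% were called in the same order of comparisons. Of those that averaged 6 or more, as all neighbours here did, 10.8%, 8.3% and 37.8% were called. Among the 10 neighbours of Mitf on chromosome 6, Frmd4b was called higher in KO/mock than in WT/mock (0.30), and Frmd4b and Eogt were called lower in KO/ERRb-wt than in KO/mock (both -0.41). Against WT/mock, Foxp1, a forkhead factor gene, was called higher in KO/ERRb-wt (0.46), and Eogt and Uba3 lower. None of the 10 neighbours of Flcn on chromosome 11 was called in either KO/mock against WT/mock or KO/ERRb-wt against KO/mock; their median differences were 0.11 and 0.03. Against WT/mock, Jmjd4 and Pld6 were called higher in KO/ERRb-wt, both at 0.31. Calls of Frmd4b in KO/mock, and of Eogt, Uba3 and Pld6 in KO/ERRb-wt against WT/mock, ended without single arrays.

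**Figure D2:**
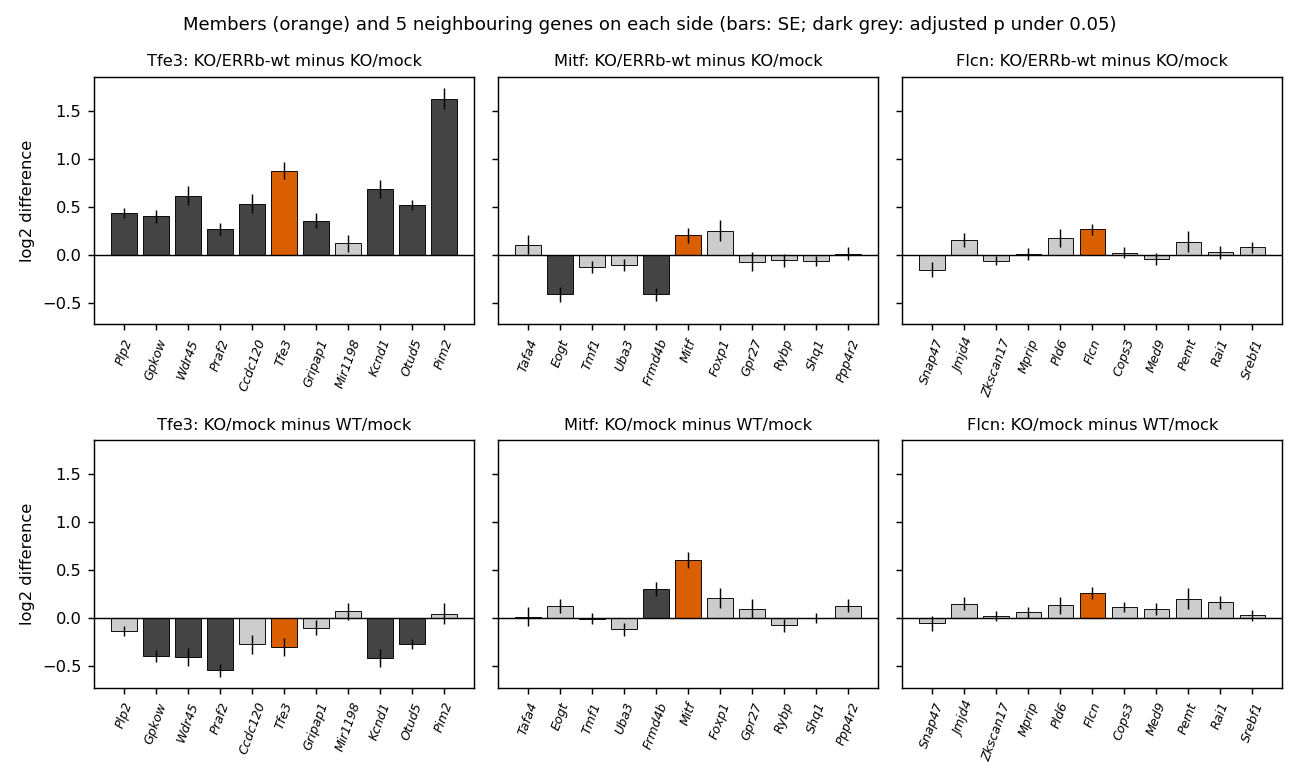
Log2 differences of Tfe3, Mitf and Flcn and of the 5 measured genes on each side in chromosome order, with KO/ERRb-wt minus KO/mock in the upper row and KO/mock minus WT/mock in the lower row; orange columns are the members, dark grey columns neighbours that passed an adjusted p under 0.05, light grey ones those that did not, and whiskers give SE. Beside Tfe3 all 10 neighbours lie above 0 in the upper row and 8 of 10 below 0 in the lower row, while Mitf has 3 dark columns over both rows and Flcn none.

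Among 9262 genes other than predicted models, miRNAs and olfactory or vomeronasal receptors with a mean of at least 6, the 8 whose deviations from their own mean over the 12 arrays lay closest to those of Tfe3 were Rnf213, Notum, Impdh1, Ebp, Rarg, Otud5, Ccdc120 and Arhgef3. The root mean square distance was 0.10 for Rnf213, an E3 ligase gene on chromosome 11, and 0.15 for Notum, whose product inactivates Wnt ligands, where Tfe3 itself varied by 0.38 about its mean. It was 0.16 for Impdh1, of guanine nucleotide synthesis, 0.17 for Ebp, of cholesterol synthesis, and 0.18 for Rarg, a retinoic acid receptor gene. Ebp, Otud5 and Ccdc120 are X-linked like Tfe3. Rnf213 averaged 6.55 in KO/ERRb-wt, 5.75 in KO/mock and 5.92 in WT/mock, the same order of groups as for Tfe3. All 12 arrays enter this ranking, so it repeats the group pattern and is a description.

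Mitf (chr6:97807002-98021360) encodes the family member that directs melanocytes and, in mice, also osteoclasts and the eye. It read 8.19, 8.08, 7.93 and 8.14 in KO/ERRb-wt and 7.93, 7.82, 7.76 and 8.01 in KO/mock, against 7.15, 7.26, 7.32 and 7.38 in WT/mock. The KO/ERRb-wt and KO/mock arrays overlapped, and all 8 lay above the 4 WT/mock arrays. The means were 8.09 ± 0.11, 7.88 ± 0.11 and 7.28 ± 0.10 in KO/ERRb-wt, KO/mock and WT/mock (SD, n = 4 each).

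Mitf rose in KO/mock relative to WT/mock by 0.61 ± 0.08 (SE), 1.52-fold (limma, adjusted p = 0.00155), and in KO/ERRb-wt relative to WT/mock by 0.81 ± 0.08, 1.75-fold (adjusted p = 6.68e-05). Between KO/ERRb-wt and KO/mock it differed by 0.20 ± 0.08 (adjusted p = 0.199). Both calls held without any single array or clone. With the arrays of a clone averaged, the call of KO/ERRb-wt against WT/mock held (adjusted p = 0.0141) and that of KO/mock against WT/mock did not (adjusted p = 0.0918). The probe set does not separate the several Mitf transcripts, which start at different promoters.

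Tfeb (chr17:47737037-47792416), a regulator of lysosome formation, averaged under 6 in every group. It had 5.60, 5.59, 5.76 and 5.66 in KO/ERRb-wt, against 5.38, 5.47, 5.57 and 5.52 in KO/mock and 5.55, 5.35, 5.46 and 5.51 in WT/mock. The KO/ERRb-wt arrays all lay above those of the other groups, by a small margin. The difference was 0.17 ± 0.07 from KO/mock (adjusted p = 0.204) and 0.19 ± 0.07 from WT/mock (adjusted p = 0.0901), and KO/mock differed from WT/mock by 0.02 ± 0.07 (adjusted p = 0.950).

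Tfec (chr6:16830927-16898464), which is known mainly from macrophages, also averaged under 6 in every group, and no detection call accompanies the table. It read 3.57, 3.39, 3.42 and 3.59 in KO/ERRb-wt, against 3.45, 3.51, 3.49 and 3.16 in KO/mock and 3.19, 3.02, 3.19 and 3.35 in WT/mock. Its KO/ERRb-wt arrays lay above those of WT/mock by 0.30 ± 0.10 on average, which did not pass (adjusted p = 0.0556), and overlapped those of KO/mock. The KO/mock difference from WT/mock was 0.21 ± 0.10 (adjusted p = 0.309). Differences at such low signal are compressed, so a probe set this dim limits what can be seen.

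Flcn (chr11:59791408-59810039), a tumour suppressor gene in human renal cancer syndromes, is the member whose product acts on the family from outside it. It read 8.00, 8.01, 7.90 and 7.99 in KO/ERRb-wt, against 7.69, 7.62, 7.81 and 7.71 in KO/mock and 7.49, 7.47, 7.33 and 7.48 in WT/mock. All KO/ERRb-wt arrays lay above all KO/mock arrays, and these above all WT/mock arrays. The means were 7.98 ± 0.05 in KO/ERRb-wt, 7.71 ± 0.08 in KO/mock and 7.44 ± 0.08 in WT/mock (SD, n = 4 each).

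Flcn rose in KO/mock relative to WT/mock by 0.27 ± 0.06 (SE), 1.20-fold (limma, adjusted p = 0.0343). It rose in KO/ERRb-wt relative to KO/mock by 0.27 ± 0.06, also 1.20-fold (adjusted p = 0.0418), and relative to WT/mock by 0.53 ± 0.06, 1.45-fold (adjusted p = 0.000176). The last call held without any single array or clone and with clone averages (adjusted p = 0.0280). The 2 smaller steps stood near the threshold. The call of KO/mock against WT/mock ended when any of 7 single arrays was left out, with adjusted p up to 0.0973, and that of KO/ERRb-wt against KO/mock with any of 9, up to 0.108. The first call also ended without clone 5-2, 5-5, 8-4 or 12-1 (adjusted p up to 0.258). The second ended without any clone but 5-5 (adjusted p up to 0.249). With the replicate number as a further block they had adjusted p = 0.0559 and 0.0646.

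Fnip1 (chr11:54438107-54518241) and Fnip2 (chr3:79455971-79568151), which encode the partners of folliculin, were not called in any comparison. Fnip1 read 8.36, 8.31, 8.22 and 8.15 in KO/ERRb-wt, against 8.26, 8.29, 8.08 and 8.29 in KO/mock and 8.43, 8.45, 8.18 and 8.32 in WT/mock. Fnip2 read 8.28, 8.38, 8.34 and 8.29 in KO/ERRb-wt, against 8.17, 8.34, 8.50 and 8.26 in KO/mock and 8.31, 8.28, 8.35 and 8.23 in WT/mock. The arrays of all groups overlapped for both genes. The difference of KO/mock from WT/mock was -0.11 ± 0.08 for Fnip1 (adjusted p = 0.571) and 0.03 ± 0.07 for Fnip2 (adjusted p = 0.923). It was 0.03 ± 0.08 and 0.00 ± 0.07 in the same order of genes when KO/mock was taken from KO/ERRb-wt, and with WT/mock taken from it -0.08 ± 0.08 and 0.03 ± 0.07, none of which passed (adjusted p from 0.559 to 0.990). In simulated data, where 100 probe sets of any brightness changed at each size, the test recovered 42% to 58% of changes of 0.5 on the log2 scale. More probe sets were called in the data, which eases the adjusted threshold, so these shares do not carry over to Fnip1 and Fnip2. Small changes may still be missed at this number of arrays.

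**Figure D3:**
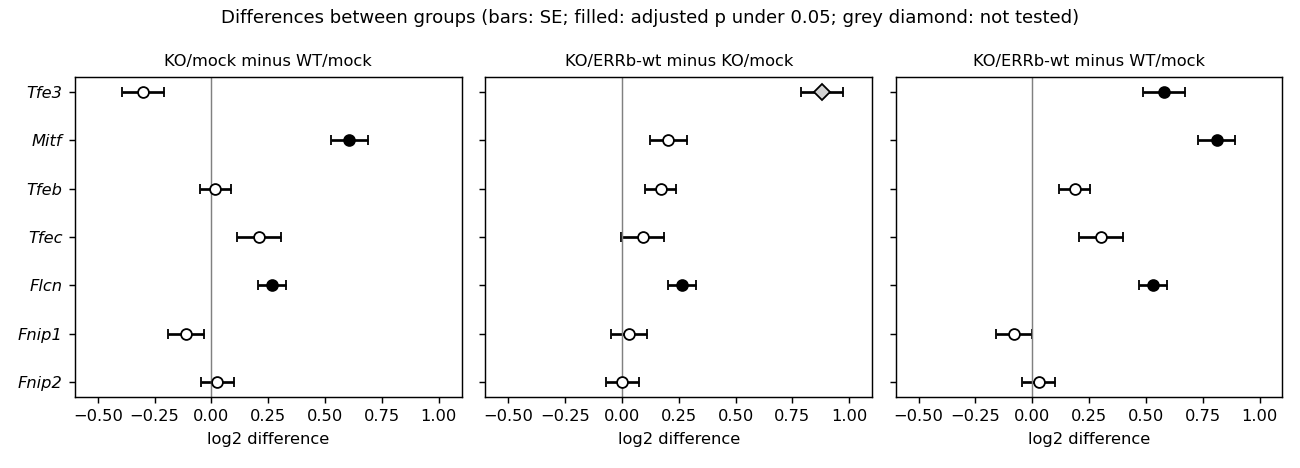
Log2 differences of the 7 family genes in a panel per comparison, with SE bars; filled points passed an adjusted p under 0.05, open points did not, and the grey diamond is the Tfe3 difference that chose the family and has no test. Mitf and Flcn lie above 0 in every panel, and Fnip1 and Fnip2 stay within 0.12 of it.

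Genes that Tfe3 and its relatives are known to drive were read as lists. Of 35 lysosomal genes of the CLEAR network, whose promoters carry the extended E-box bound by Tfeb and Tfe3, 31 were measured. KO/mock had 10 of the 31 called lower than WT/mock and no gene called higher, at a median log2 difference of -0.22, where 3.47% of all genes were called lower and the median of all genes was 0.00. In KO/ERRb-wt 14 were called lower and 2 higher than in WT/mock, with a median of -0.21, where 12% of all genes were called lower. Between KO/ERRb-wt and KO/mock the median was -0.02 and 1 of the 31 was called, where 4.4% of all genes were called. It was Gusb, for beta-glucuronidase, at 0.41 ± 0.08 (SE, limma adjusted p = 0.0252), a call that ended without any of 5 single arrays. Of genes with a mean of at least 6, 8.3% were called in this comparison, so the count is not above either share. Some 6.64% and 23% of genes with a mean of at least 6, as 30 of the 31 have, were called lower than WT/mock in KO/mock and in KO/ERRb-wt.

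Ctsb, for the protease cathepsin B, ran from 10.93 to 11.06 in KO/ERRb-wt and from 10.91 to 11.14 in KO/mock, against 11.44 to 11.57 in WT/mock. It was 0.50 ± 0.07 lower in KO/ERRb-wt than in WT/mock (adjusted p = 0.000407) and 0.47 ± 0.07 lower in KO/mock (adjusted p = 0.00205). Pip4p1, a phosphoinositide phosphatase gene, ran from 9.11 to 9.24 in KO/ERRb-wt and from 9.01 to 9.09 in KO/mock, against 9.51 to 9.65 in WT/mock. Both genes lie on chromosome 14, where 252 of 342 genes with a mean of at least 6 were called lower in KO/mock than in WT/mock and 269 in KO/ERRb-wt than in WT/mock. Without the chromosome 14 genes, 8 of 29 lysosomal genes were called lower in KO/mock than in WT/mock, and 12 lower and 2 higher in KO/ERRb-wt; this count was added after the values were seen.

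Gaa, for acid alpha-glucosidase, fell in KO/mock by 0.54 ± 0.09 relative to WT/mock (adjusted p = 0.00634), and Cd63, for a lysosomal tetraspanin, by 0.40 ± 0.06 (adjusted p = 0.00409). In KO/ERRb-wt, Cd63 was 0.26 ± 0.06 above KO/mock, which did not pass (adjusted p = 0.0506). Gla, for alpha-galactosidase A, ran from 8.27 to 8.39 in KO/ERRb-wt and from 8.42 to 8.66 in KO/mock, against 8.68 to 8.98 in WT/mock, and was called in KO/ERRb-wt against WT/mock (adjusted p = 0.000819). Scpep1, a carboxypeptidase gene, and Asah1, for acid ceramidase, were 0.60 ± 0.09 and 0.59 ± 0.09 lower in KO/ERRb-wt than in WT/mock. The KO/mock count rested on few clones: it was 2 without clone 5-2 of WT/mock, 3 without clone 8-4 of KO/mock, and 0 with clone averages. The count of 16 called genes in KO/ERRb-wt against WT/mock was 8 without clone 5-2, 10 without clone 12-1, and 5 with clone averages.

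Of 17 subunits and partners of the vacuolar ATPase, the proton pump that acidifies lysosomes and holds the Rag machinery, 16 were measured. In both knockout groups 3 were called lower than in WT/mock while no subunit was called higher, at medians of -0.10 in KO/mock and -0.06 in KO/ERRb-wt. Of all genes 3.47% and 12% were called lower in the same order of groups, and 6.64% and 23% of those that averaged 6 or more, as 15 of the 16 did, so the KO/ERRb-wt count is near that background. Atp6v1a, for the catalytic subunit, ran from 9.11 to 9.23 in KO/ERRb-wt and from 9.17 to 9.40 in KO/mock, against 9.52 to 9.68 in WT/mock. It was 0.46 ± 0.07 lower in KO/ERRb-wt than in WT/mock (adjusted p = 0.000659) and 0.31 ± 0.07 lower in KO/mock (adjusted p = 0.0234). Atp6v1h, a regulatory subunit gene, was 0.40 ± 0.05 and 0.23 ± 0.05 lower in the same order (adjusted p = 0.000502 and 0.0341). Between KO/ERRb-wt and KO/mock none of the 16 was called. The 3 calls of KO/mock against WT/mock, Atp6v1a, Atp6v1h and Atp6ap2, each ended without several single arrays, with adjusted p up to 0.110, and none was left without clone 5-2 or without clone 8-4.

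**Figure D4:**
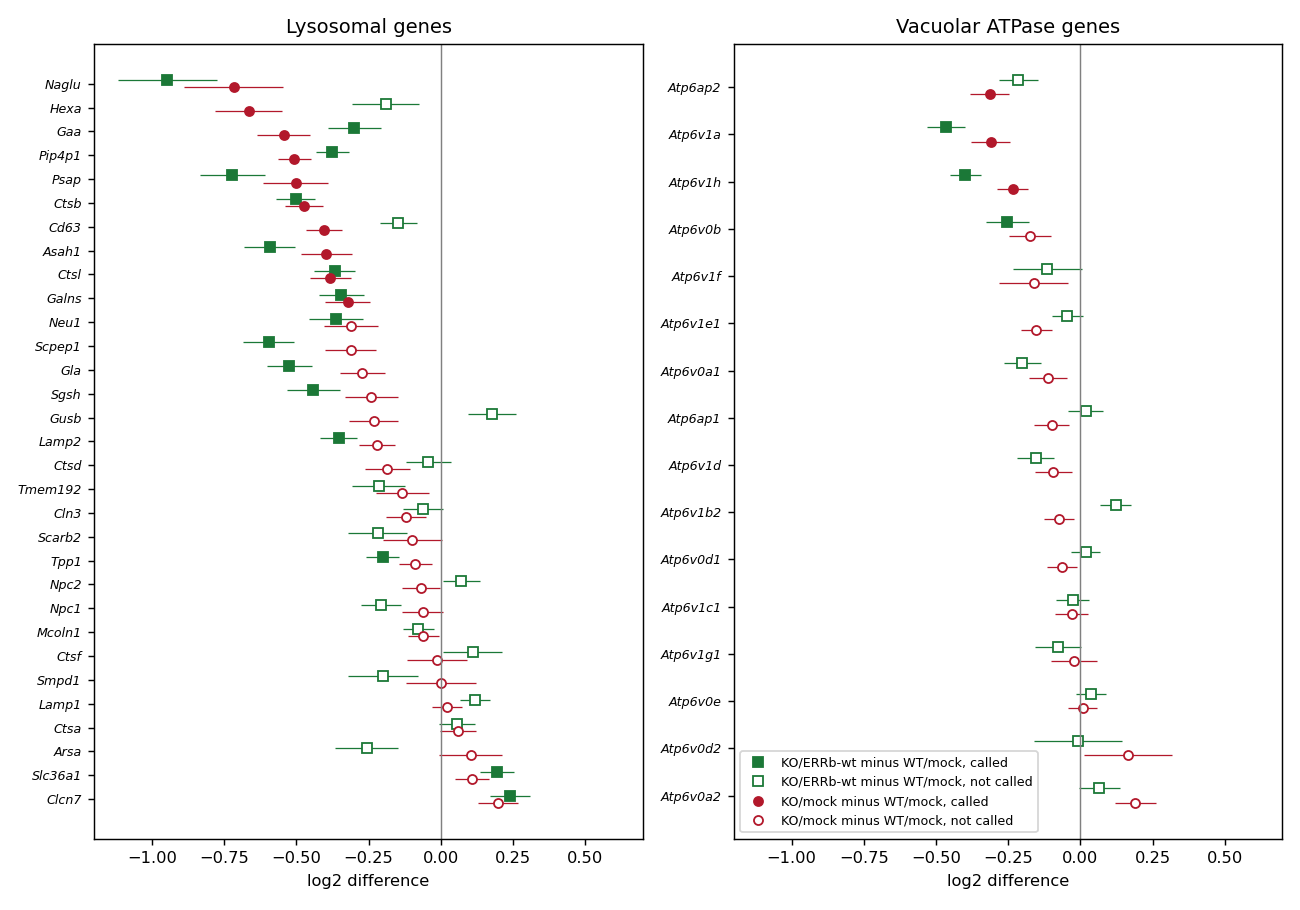
Log2 differences from WT/mock of the measured lysosomal and vacuolar ATPase genes, with green squares for KO/ERRb-wt and red circles for KO/mock; filled symbols passed an adjusted p under 0.05. Most symbols lie below 0 in both groups, and the lowest are those of Naglu, at -0.95 in KO/ERRb-wt and -0.72 in KO/mock, with bars of SE.

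Autophagy genes, which the family is also known to drive, were read next. Of 24 listed genes 23 were measured, and 1 was called in KO/mock against WT/mock, 2 in KO/ERRb-wt against KO/mock and 5 in KO/ERRb-wt against WT/mock, where 5.58%, 4.4% and 20.8% of all genes were called. Of genes that averaged 6 or more, as 22 of the 23 did, 10.8%, 8.3% and 37.8% were called. The counts are thus near or below the shares of such genes. Wipi1, for a phosphoinositide-binding protein of the early autophagosome, ran from 6.24 to 6.57 in KO/ERRb-wt and from 6.86 to 7.43 in KO/mock, against 7.48 to 7.87 in WT/mock. It fell in each comparison, by 0.58 ± 0.13 in KO/mock relative to WT/mock (adjusted p = 0.033), by 0.71 ± 0.13 in KO/ERRb-wt relative to KO/mock (adjusted p = 0.0179) and by 1.30 ± 0.13 in KO/ERRb-wt relative to WT/mock (adjusted p = 8.32e-05). Sqstm1, for the autophagy receptor p62, was higher in KO/ERRb-wt than in KO/mock by 0.23 ± 0.05 (adjusted p = 0.0379) and than in WT/mock by 0.19 ± 0.05 (adjusted p = 0.0296). Gabarapl1, of the ATG8 family, was 0.66 ± 0.12 lower in KO/ERRb-wt than in WT/mock (adjusted p = 0.00374). The Wipi1 call of KO/mock against WT/mock ended without any of 7 single arrays, that of KO/ERRb-wt against KO/mock without any of 2, and the Sqstm1 calls without any of 10 and 4.

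The complexes on which folliculin acts were read next. Of 19 genes of the Rag GTPases, the Ragulator complex and mTORC1, all measured, none was called in KO/mock against WT/mock, 3 were called lower in KO/ERRb-wt than in KO/mock, where 3.17% of all genes were, and 4 were called higher and 4 lower in KO/ERRb-wt than in WT/mock, where 8.82% and 12% of all genes were, and 37.8% in either direction of those that averaged 6 or more. Rragd, for RagD, a substrate of the folliculin complex and a known target gene of this family, averaged 9.85 ± 0.10 in KO/ERRb-wt, 9.66 ± 0.07 in KO/mock and 9.56 ± 0.07 in WT/mock (SD, n = 4 each), and was called in KO/ERRb-wt against WT/mock at 0.29 ± 0.07 (SE; adjusted p = 0.0101). Slc38a9, for the arginine sensor of the lysosomal membrane, ran from 6.97 to 7.10 in KO/ERRb-wt, against 7.34 to 7.68 in KO/mock and 7.39 to 7.78 in WT/mock. It was 0.50 ± 0.09 lower in KO/ERRb-wt than in KO/mock (adjusted p = 0.0183). Tbc1d7, for the third subunit of the TSC complex, which restrains mTORC1, ran from 7.08 to 7.40 in KO/ERRb-wt, against 7.66 to 7.87 in KO/mock and 7.82 to 8.03 in WT/mock. It was 0.60 ± 0.08 lower in KO/ERRb-wt than in KO/mock (adjusted p = 0.00401). Rragb, for RagB, was 0.31 ± 0.07 lower there (adjusted p = 0.04), a call that ended without any of 8 single arrays, as that of Slc38a9 did without any of 3.

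Among 15 measured genes of 17 for GATOR, KICSTOR and the cytosolic amino acid sensors, which set Rag activity upstream, Castor1 moved in every comparison. Castor1, for the cytosolic arginine sensor, ran from 9.51 to 9.70 in KO/ERRb-wt and from 9.08 to 9.24 in KO/mock, against 8.51 to 8.80 in WT/mock, with no overlap. It rose by 0.51 ± 0.07 in KO/mock relative to WT/mock (adjusted p = 0.00257), by 0.41 ± 0.07 in KO/ERRb-wt relative to KO/mock (adjusted p = 0.0156) and by 0.92 ± 0.07 in KO/ERRb-wt relative to WT/mock (adjusted p = 1.81e-05). None of these calls ended without a single array, although the second ended without any of 3 clones. Its paralogue Castor2 was 0.50 ± 0.11 lower in KO/ERRb-wt than in KO/mock (adjusted p = 0.0363; the call ended without any of 7 single arrays). In all, 2 of the 15 were called higher and none lower in KO/mock against WT/mock, 1 higher and 1 lower in KO/ERRb-wt against KO/mock, and 5 higher and 3 lower in KO/ERRb-wt against WT/mock. Of all genes 5.58%, 4.4% and 20.8% were called in the same order, and 10.8%, 8.3% and 37.8% of those that averaged 6 or more, as all 15 did.

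Of 18 genes for proteins that phosphorylate Tfe3 and Tfeb, dephosphorylate them or hold them in the cytoplasm, 15 were measured. In KO/mock against WT/mock 1 was called higher and 1 lower, in KO/ERRb-wt against KO/mock 1 lower, and in KO/ERRb-wt against WT/mock 2 higher and 3 lower, where 5.58%, 4.4% and 20.8% of all genes were called and 37.8%, in the last, of those that averaged 6 or more. Prkaa2, for a catalytic subunit of AMPK, ran from 7.46 to 7.86 in KO/ERRb-wt, against 8.33 to 8.55 in KO/mock and 8.59 to 8.95 in WT/mock. It was 0.80 ± 0.10 lower in KO/ERRb-wt than in KO/mock (adjusted p = 0.00252) and 1.08 ± 0.10 lower than in WT/mock (adjusted p = 4.23e-05). Ppp3cb, for a catalytic subunit of calcineurin, the phosphatase that acts on Tfeb, fell in KO/mock by 0.43 ± 0.06 relative to WT/mock (adjusted p = 0.00163) and in KO/ERRb-wt by 0.55 ± 0.06 (adjusted p = 8.48e-05); it too lies on chromosome 14. Ywhab, for a 14-3-3 protein, rose by 0.29 ± 0.06 in KO/mock relative to WT/mock (adjusted p = 0.0226) and by 0.34 ± 0.06 in KO/ERRb-wt (adjusted p = 0.00283). The first of these Ywhab calls ended without any of 5 single arrays.

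Of 20 genes known to rise when folliculin is lost, 17 were counted, since 3 belong to the family itself. In KO/mock against WT/mock 2 were called lower, Asah1 and Atp6v1a, and none higher, where 3.47% of all genes were called lower. In KO/ERRb-wt against KO/mock Sqstm1 alone was called, where 4.4% of all genes were. In KO/ERRb-wt against WT/mock 5 were called higher and 4 lower, with a median difference of -0.06. There 8.82% of all genes were called higher and 12% lower. Of genes that averaged 6 or more, as 13 of the 17 did, 6.64% were called lower in the first comparison. The shares called in either direction were 8.3% in the second and 37.8% in the third. Gpnmb, a melanosomal glycoprotein gene and a common marker of Tfe3 activity in human kidney tumours, averaged 5.18 ± 0.21 in KO/ERRb-wt, 5.44 ± 0.09 in KO/mock and 5.68 ± 0.17 in WT/mock (SD, n = 4 each). It was lower in KO/ERRb-wt than in WT/mock by 0.50 ± 0.11 (SE; adjusted p = 0.0113) at a dim probe set; it was picked after its value was seen.

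Target genes of Mitf in melanocytes were mostly dim: of 17 listed, 16 were measured and 4 averaged 6 or more. Pmel, for the melanosome fibril protein, ran from 7.44 to 7.73 in KO/ERRb-wt and from 7.10 to 7.16 in KO/mock, against 6.17 to 6.68 in WT/mock. It was 0.72 ± 0.10 higher in KO/mock than in WT/mock (adjusted p = 0.00251) and 1.18 ± 0.10 higher in KO/ERRb-wt than in WT/mock (adjusted p = 2.84e-05), and neither call ended without a single array or clone, although the first ended with clone averages. The step of 0.46 ± 0.10 between KO/ERRb-wt and KO/mock passed (adjusted p = 0.0368) and ended without any of 7 single arrays. The defining pigment genes were not called: Tyr, for tyrosinase, averaged 3.44 ± 0.15 in KO/ERRb-wt, 3.35 ± 0.10 in KO/mock and 3.34 ± 0.10 in WT/mock, and Dct averaged 4.69 ± 0.17, 4.58 ± 0.14 and 4.62 ± 0.20 in the same order (SD, n = 4 each). Met, a receptor tyrosine kinase gene, fell by 0.57 ± 0.11 in KO/ERRb-wt relative to KO/mock (adjusted p = 0.0198; the call ended without any of 3 single arrays), and Bcl2 fell by 0.44 ± 0.09 in KO/mock relative to WT/mock (adjusted p = 0.0201; without any of 2).

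Summed over the 16 melanocyte genes, the log2 level was 10.90 to 10.98 in KO/ERRb-wt, 10.83 to 10.96 in KO/mock and 10.60 to 10.75 in WT/mock, with 1 higher and 1 lower call in KO/mock against WT/mock, 1 and 1 in KO/ERRb-wt against KO/mock, and 5 higher and 2 lower in KO/ERRb-wt against WT/mock, where 5.58%, 4.4% and 20.8% of all genes were called. Macrophage and osteoclast markers, for the other cells in which Mitf and Tfec are known to act, summed to 8.50 to 8.61 in KO/ERRb-wt, 8.53 to 8.69 in KO/mock and 8.62 to 8.90 in WT/mock. None of those 9 was called in KO/mock against WT/mock or in KO/ERRb-wt against KO/mock, and 1 was called lower in KO/ERRb-wt than in WT/mock. The part of such cells in the Mitf and Tfec values was not tested.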

How the data were processed

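The authors deposited log2 expression values of 12 Affymetrix whole-transcript mouse gene arrays, which the submitters' processing notes credit to RMA and Affymetrix Expression Console; no source used here gives versions or the genome build. RMA gives every array one common distribution and so hides a change that most genes share. No depth or detection call accompanies the table, and scanner files were not used here. The labels gave groups and clones, and call a clone's 2 arrays biological replicates; nothing says that they are separate cultures, so p-values measure the spread between these samples, which may be technical.

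Probe sets were named from the platform annotation (23521 with 1 symbol, 1814 with several and 16010 with none of 41345). Where a gene had several 1-symbol probe sets, the one of highest mean stood for it. All arrays entered a limma 3.58.1 fit in R 4.3.3 (statmod 1.5.0) of 3 groups, clone being a random block whose estimated correlation was 0.0286, two-sided and adjusted by Benjamini-Hochberg over all probe sets, with calls at 0.05. Gene order and promoters came from RefSeq GRCm38.p6, which placed 21994 genes. The members and the 13 gene lists were chosen with earlier results of these data known.

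Named genes were the 7 members, Esrrb, the 5 genes on each side of a member with a mean of at least 6, up to 4 called genes per list and comparison with the smallest adjusted p, and the 8 genes closest to Tfe3; of the list genes those that bear on the family were described. Gpnmb, Naglu, Tyr and Dct were chosen after their values were seen.

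Tested on simulated data (41345 probe sets, 100 of them changed at each size), the fit found 57% of the 0.5 changes and 88% of the larger ones, of 1, in KO/mock against WT/mock. The shares were 42% and 90% in KO/ERRb-wt against KO/mock. In KO/ERRb-wt against WT/mock they were 58% and 77%. False calls made up 4.61%, 7.04% and 8.78% of all calls there. The shares of 7.04% and 8.78% stand above the level of 0.05 at which calls were made. Far fewer probe sets changed in the simulation than were called in the data, so its adjusted threshold was stricter. Its shares average over bright and dim probe sets and are not those of a given gene. Simulated arrays were drawn independently with no clone effect, so the shares do not cover differences between clones. Replicate numbers 1 and 2 do not pair samples across clones: of 15 pairs of clones, the correlation of their differences between replicates ran from -0.04 to 0.14, and 1 was above 0.1. The settings tried were clones averaged, no block for clone, a replicate block, a fit of the compared groups alone, array weights, a trended robust prior, median centring, quantile normalization, dim probe sets left out, and each array and clone left out in turn.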

Additional observations from a re-analysis of the deposited data

Results flagged for a closer look

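In 10 of 195 groups of 4 arrays (65 genes in 3 groups), or 5.13%, the highest or lowest array lay far from the other 3 by Dixon's test, and chance flags about 1 in 20 groups. Among the family, Tfe3 read 9.86 on replicate 2 of clone 12-3 in KO/ERRb-wt, against 9.75 to 9.76 on the other arrays of that group. Flcn read 7.33 on replicate 1 of clone 5-5 in WT/mock, against 7.47 to 7.49 on the others, so this array enlarges the step between KO/mock and WT/mock. Fnip1 read 8.08 on replicate 1 of clone 8-4 in KO/mock, against 8.26 to 8.29 on the others. Rnf213, closest to Tfe3 in pattern, read 5.74 on replicate 2 of clone 5-2 in WT/mock. In the lists, Pip4p1 read 9.65 on replicate 1 of clone 5-2 in WT/mock, Scpep1 10.89 on replicate 2 of clone 12-3 in KO/ERRb-wt, and Tbc1d7 7.66 on replicate 1 of clone 8-4 in KO/mock. Gpnmb read 4.87 on replicate 2 of clone 12-1 in KO/ERRb-wt, and on replicate 2 of clone 8-4 in KO/mock Pmel read 7.16 and Tyr 3.21.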

How the results depend on the processing

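No called result changed sign. Mitf and Flcn in KO/ERRb-wt against WT/mock kept their calls in every setting run. For Tfe3, KO/ERRb-wt minus KO/mock was 0.71 without clone 8-3 and 1.05 without clone 8-4, and 0.81 to 0.94 without single arrays. KO/mock minus WT/mock was -0.36 to -0.23 without single arrays, and passed at -0.30 without dim probe sets (adjusted p = 0.0372, fewer probe sets tested) and at -0.47 without clone 8-4 (adjusted p = 0.0181). The KO/mock arrays entered the choice of Tfe3, so these passes are a description. KO/ERRb-wt minus WT/mock was 0.55 to 0.61 without single arrays and, with clone averages and so fewer samples, 0.58 (adjusted p = 0.0587).

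The 2 called members of KO/mock against WT/mock were 0 with clone averages, 1 to 2 without single arrays, and 1 with the replicate block, with only the 2 groups compared, with quantile normalization and without clones 5-2, 5-5 or 12-1. Without clone 8-4 they were again 2, but Tfe3, lower, took the place of Flcn. With dim probe sets left out, Tfe3, lower, was called beside Mitf and Flcn. The 2 of KO/ERRb-wt against KO/mock, of which Tfe3 was fixed by the choice of the family and is no test, were 0 with clone averages, 1 to 2 without single arrays, and 1 with the replicate block, with only the 2 groups compared, with median centring and without clones 5-2, 8-3, 8-4, 12-1 or 12-3. The 3 of KO/ERRb-wt against WT/mock include Tfe3, whose KO/ERRb-wt arrays also entered its choice. These 3 were 3 to 4 without single arrays and 2 with clone averages (Mitf and Flcn). They were 4, with Tfec, without the clone block and without clones 5-5 or 8-4. The cause was not tested. With clone averages no named gene was called in KO/mock against WT/mock or in KO/ERRb-wt against KO/mock. Called lysosomal genes, 10 in KO/mock against WT/mock, were 6 to 12 without single arrays, and the 16 in KO/ERRb-wt against WT/mock were 11 to 17.

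The mean of all probe sets of a gene was not run, since each member has 1. With 4 arrays from 2 clones a group, small changes can be missed, as many of 0.5 were in the simulated data. Tfeb and Tfec are too dim for small changes to show.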

Other observations

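Other helix-loop-helix factors that bind E-boxes, the sequence that Tfe3 and its relatives also bind, were read as a list. Of 17 such genes, all measured, 2 were called higher and 2 lower in KO/mock against WT/mock, 2 higher and 1 lower in KO/ERRb-wt against KO/mock, and 6 higher and 4 lower in KO/ERRb-wt against WT/mock. Of all genes 5.58%, 4.4% and 20.8% were called in the same order, and 10.8%, 8.3% and 37.8% of those that averaged 6 or more. Usf1, for a widely expressed E-box factor, ran from 8.01 to 8.05 in KO/ERRb-wt and from 7.56 to 7.70 in KO/mock, against 7.13 to 7.56 in WT/mock. It was 0.42 ± 0.09 higher in KO/ERRb-wt than in KO/mock (SE; limma, adjusted p = 0.0377) and 0.66 ± 0.09 higher than in WT/mock (adjusted p = 0.000667). Max, for the partner of the Myc proteins, rose by 0.34 ± 0.07 in KO/mock relative to WT/mock (adjusted p = 0.018), and Mycn rose by 0.51 ± 0.12 in KO/ERRb-wt relative to KO/mock (adjusted p = 0.0414). Bhlhe40, for a repressor of the circadian clock, ran from 7.68 to 7.89 in KO/ERRb-wt and from 8.12 to 8.60 in KO/mock, against 8.51 to 9.43 in WT/mock, and fell by 1.21 ± 0.19 in KO/ERRb-wt relative to WT/mock (adjusted p = 0.00107). Mlxipl, for the carbohydrate-responsive factor ChREBP, fell by 0.52 ± 0.09 in KO/mock relative to WT/mock (adjusted p = 0.00572). The calls of Usf1 and Mycn in KO/ERRb-wt against KO/mock each ended without any of 7 single arrays, and that of Max without any of 4.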
